A study of Homo sapiens with 44 samples.

Results

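The constitutive proteasome genes were followed in OVCAR5 cells, an ovarian carcinoma line that here carried a reporter of IFNγ sensing and was CFP+. The set was defined by symbol: PSMA, PSMB, PSMC, PSMD or PSMG followed by a number, together with PSME3, PSME4, POMP and ADRM1, without the inducible catalytic subunits PSMB8, PSMB9 and PSMB10. Of 33538 genes in the tables, 44 symbols matched and 42 protein-coding genes had a mean of at least 1 TPM, a transcript abundance corrected for gene length and scaled to the same sum in every library. PSMA8 was listed at 0 in every library and PSMB11 averaged 0.0019 TPM, and both were left out. The 42 genes comprised 7 subunits of the 20S α ring, 7 of the 20S β ring, 6 ATPases and 4 other subunits of the base, 8 lid subunits, 3 chaperones of base assembly, 5 of 20S assembly and 2 alternative activators. All 42 passed the filter on low counts that left 14469 genes for testing.

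Cells were left unstimulated or were given IFNγ (0.01, 1 or 100 ng/ml), TNFα at a dose of 0.1, 1 or 10 ng/ml, IFNγ 100 ng/ml together with TNFα 10 ng/ml, or supernatant from tumor cells co-cultured with T cells, diluted 1/2, 1/200 or 1/20000. For each of these 11 treatments 1 library was sequenced at each of 4 durations of continuous exposure (2, 6, 12 and 24 h), which makes 44 in all. All groups share the reporter line. Library totals ran from 9586125 to 16270128 estimated counts. The epithelial genes KRT8 (696 to 1552 TPM) and KRT18 (621 to 1170 TPM) were abundant. EPCAM, KRT7 and KRT19 stayed at or above 37.3, 123 and 119 TPM. CDH1, also epithelial, and MUC1 had medians of only 2.89 and 2.08 TPM. PAX8, a marker of ovarian carcinoma, ran from 4.00 to 15.7 TPM. The 2 other such markers, WT1 and MUC16, stayed at or under 0.618 and 0.295 TPM. The summed TPM of 11 T cell markers was at most 1.23 in any library, and CD3E was at 0 in all 44. In the sample-sheet numbers within the deposited tables' names, those of the 2 h and 6 h libraries all precede those of the 12 h and 24 h libraries. The labels tie no library to a sequencing pool, and a pool that followed these numbers could not be told apart from early against late duration.

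The 26S proteasome degrades proteins tagged with ubiquitin. Its 20S core is a barrel of stacked rings: outer α rings, which gate the entrance, and inner β rings, of which PSMB5, PSMB6 and PSMB7 carry the proteolytic sites. The regulatory particle on top of the core has a base, whose PSMC ATPases unfold the substrate, and a lid, whose subunit PSMD14 removes ubiquitin. In cells exposed to IFNγ, newly made cores take up PSMB8, PSMB9 and PSMB10 in place of PSMB5, PSMB6 and PSMB7 respectively and are called immunoproteasomes, which still need the same α ring and the other β subunits. NFE2L1 (NRF1) is the transcription factor known to raise proteasome genes together when proteasome activity falls short, and it acts through antioxidant response elements.

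Promoter windows of 300 bases (250 before and 50 from the start site) were found in a RefSeq table on GRCh38.p14 for 36 of the 42 genes. They are shown for 2 kinds of gene. PSMA4, POMP, PSMB4 and PSMG4, called higher under IFNγ at 100 ng/ml, and PSMD2 and PSMD11, called higher under TNFα at 10 ng/ml, were picked because their windows hold one of the motifs below. PSMA5 and PSMA3, with large changes under IFNγ, and PSMA6, with the largest under the combination, are shown for their changes. Capitals mark the letters GAAANNGAA, part of an interferon-stimulated response element, GGNNNTTCC, a κB core, or TTCNNNGAA, an interferon-γ activated site, each on either strand.
PSMA4: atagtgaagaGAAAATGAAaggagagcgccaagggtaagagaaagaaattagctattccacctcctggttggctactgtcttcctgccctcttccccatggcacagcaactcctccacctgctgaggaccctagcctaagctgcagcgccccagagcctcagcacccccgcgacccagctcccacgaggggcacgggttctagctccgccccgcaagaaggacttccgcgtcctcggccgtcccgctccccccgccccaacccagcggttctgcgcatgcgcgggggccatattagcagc
POMP: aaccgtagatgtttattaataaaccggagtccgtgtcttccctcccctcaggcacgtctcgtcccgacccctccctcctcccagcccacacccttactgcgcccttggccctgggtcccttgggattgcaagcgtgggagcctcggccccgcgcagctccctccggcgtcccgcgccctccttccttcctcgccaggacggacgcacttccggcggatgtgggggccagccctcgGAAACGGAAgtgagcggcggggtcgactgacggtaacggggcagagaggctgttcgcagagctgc
PSMB4: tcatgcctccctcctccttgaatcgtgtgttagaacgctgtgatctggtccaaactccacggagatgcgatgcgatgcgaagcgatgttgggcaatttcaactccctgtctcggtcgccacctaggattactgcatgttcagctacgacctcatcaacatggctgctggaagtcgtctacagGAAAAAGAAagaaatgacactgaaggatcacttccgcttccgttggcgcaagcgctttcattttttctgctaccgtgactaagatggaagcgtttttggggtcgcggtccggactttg
PSMG4: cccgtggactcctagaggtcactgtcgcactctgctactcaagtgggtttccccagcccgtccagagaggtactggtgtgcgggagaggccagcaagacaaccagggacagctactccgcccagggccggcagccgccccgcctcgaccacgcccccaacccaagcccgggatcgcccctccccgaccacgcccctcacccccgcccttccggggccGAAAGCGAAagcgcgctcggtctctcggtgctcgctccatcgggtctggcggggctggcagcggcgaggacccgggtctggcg
PSMA5: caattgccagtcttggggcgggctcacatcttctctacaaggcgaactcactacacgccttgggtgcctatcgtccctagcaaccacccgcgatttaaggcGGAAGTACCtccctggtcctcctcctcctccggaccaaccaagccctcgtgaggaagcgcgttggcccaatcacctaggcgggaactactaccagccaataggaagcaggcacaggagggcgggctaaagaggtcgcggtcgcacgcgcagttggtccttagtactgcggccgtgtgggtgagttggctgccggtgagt
PSMA3: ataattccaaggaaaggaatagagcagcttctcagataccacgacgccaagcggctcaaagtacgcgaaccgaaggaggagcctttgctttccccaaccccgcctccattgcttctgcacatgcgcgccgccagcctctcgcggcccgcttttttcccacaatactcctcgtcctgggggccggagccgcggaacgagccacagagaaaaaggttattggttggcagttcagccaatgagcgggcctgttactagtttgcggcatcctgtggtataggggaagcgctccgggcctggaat
PSMD2: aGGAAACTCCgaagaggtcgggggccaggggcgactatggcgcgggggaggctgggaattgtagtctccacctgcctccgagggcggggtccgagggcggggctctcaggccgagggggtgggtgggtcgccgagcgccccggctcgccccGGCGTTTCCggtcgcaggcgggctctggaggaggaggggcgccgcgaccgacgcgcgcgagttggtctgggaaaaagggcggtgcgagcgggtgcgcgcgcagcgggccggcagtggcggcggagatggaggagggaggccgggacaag
PSMD11: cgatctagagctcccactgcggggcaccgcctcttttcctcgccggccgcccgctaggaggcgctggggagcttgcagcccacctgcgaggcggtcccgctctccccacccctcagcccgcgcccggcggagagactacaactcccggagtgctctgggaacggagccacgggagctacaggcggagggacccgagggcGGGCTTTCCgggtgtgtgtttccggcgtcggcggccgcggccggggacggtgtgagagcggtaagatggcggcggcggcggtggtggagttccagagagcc
PSMA6: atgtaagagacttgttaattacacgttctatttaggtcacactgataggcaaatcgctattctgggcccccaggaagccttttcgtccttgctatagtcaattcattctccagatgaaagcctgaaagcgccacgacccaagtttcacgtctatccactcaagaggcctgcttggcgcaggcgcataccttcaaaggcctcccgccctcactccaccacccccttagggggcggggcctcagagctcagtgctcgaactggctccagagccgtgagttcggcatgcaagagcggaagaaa

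The windows lie at chr15:78540155-78540454 on the plus strand (PSMA4), chr13:28658880-28659179 on the plus strand (POMP), chr1:151399323-151399622 on the plus strand (PSMB4), chr6:3258697-3258996 on the plus strand (PSMG4), chr1:109426399-109426698 on the minus strand (PSMA5), chr14:58244593-58244892 on the plus strand (PSMA3), chr3:184298991-184299290 on the plus strand (PSMD2), chr17:32444260-32444559 on the plus strand (PSMD11) and chr14:35292067-35292366 on the plus strand (PSMA6). GAAANNGAA was present in 5 of the 36 windows (13.9%), those of PSMA4, POMP, PSMB4, PSMG4 and PSMC2, against 8.11% of all 35116 promoters in the table. It was absent from the windows of PSMA1, PSMA2, PSMA3, PSMA5, PSMA6, PSMB2 and PSMB3, which were also called higher under IFNγ at 100 ng/ml. PSMC2, whose window holds it, was not called at that dose. GGNNNTTCC was present in 10 of 36 (27.8%), against 20.1% of all promoters. Of these 10 windows, 5 belonged to the 8 lid subunits, 3 to the ATPases, 1 to PSMD2 and 1 to PSMA5. The windows of PSMD12, PSMD13 and PSMD14, called higher under TNFα, lack it. Some lid genes whose windows hold it were not called under TNFα at 10 ng/ml. TTCNNNGAA was present in 4 windows (11.1%, against 7.66%). CCAAT was found in 18 (50%, against 34.6%) and TGACNNNGC, an antioxidant response element core, in 11 (30.6%, against 13.3%). The windows of PSMA6, PSMG4 and PSMD2 lie inside the genes' spans in the annotation used for counting, as does nearly all of the PSMD11 window. In the PSMA6 window none of the 5 motifs was found. Such matches describe letters only.

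In unstimulated cells the transcripts of these genes spanned a wide range of level per length. PSMA6 was the most abundant, with 536, 504, 479 and 416 TPM at 2, 6, 12 and 24 h. The lowest was PSMG4, a chaperone of α ring assembly, with 18.5, 20.6, 20.1 and 15.9 TPM. The mean unstimulated level ran from 205 to 484 TPM among α ring genes, from 117 to 346 TPM in the β ring, from 99.7 to 317 TPM for the ATPases and from 74.0 to 214 TPM in the lid, whereas the 3 base chaperones lay between 27.1 and 43.8 TPM. Ordered by mean, 37 of the 41 pairs of neighbours had overlapping ranges over the 4 unstimulated libraries. Across all 44 libraries PSMA6 varied most, by 3.11-fold between its lowest and highest TPM, and PSMB1 least, by 1.22-fold.

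The members' transcripts were fewer at 24 h than at 2 h in unstimulated cells and at the lowest dose of each agent. Their summed level in unstimulated cells was 8385, 8190, 7801 and 6890 TPM at 2, 6, 12 and 24 h. At the lowest doses it was 8009, 8408 and 6875 TPM at 2, 12 and 24 h with IFNγ 0.01 ng/ml, 8094, 8819 and 7587 TPM with TNFα 0.1 ng/ml, and 8139, 8421 and 6981 TPM with supernatant 1/20000, so that only unstimulated cells were below their 2 h level by 12 h. On the log2 CPM scale, 39 of the 42 genes were lower at 24 h than at 2 h in all 4 of these treatments, against 30.7% of all genes tested. The exceptions were PSMB6, PSMD10 and ADRM1. The lid fell in unstimulated cells by a median of 0.50 on the log2 scale, with a summed 1254, 1237, 1097 and 884 TPM. Between 12 h and 24 h 39 genes were again lower in all 4 treatments, against 26.3% of all genes. No test was made of this decline, with 1 library per point. Each fold change below compares libraries of the same duration, so that a gene called higher may have fallen less with time than in unstimulated cells.

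**Figure D1:**
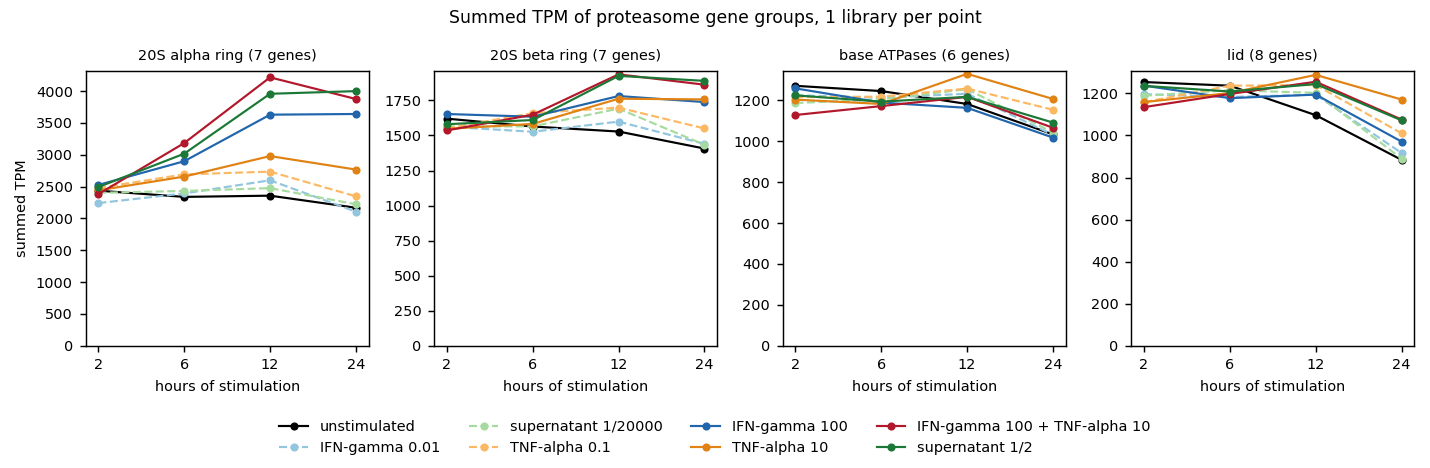
Summed TPM (vertical axis) of 4 groups of proteasome genes against hours of stimulation (horizontal axis, equally spaced), 1 library per point; dashed lines are the lowest doses. The α ring lies between 3640 and 3999 TPM at 24 h with IFNγ, the combination or supernatant 1/2. With the combination it is higher at 12 h, at 4216 TPM. The lid declines in unstimulated cells from 1254 to 884 TPM and stays at 1159 and 1171 TPM at 2 h and 24 h with TNFα.

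At 100 ng/ml IFNγ raised most genes of the α and β rings and few of the regulatory particle. Values here are log2 fold changes ± SE, fitted over all 44 libraries at the mean log2 duration, with 4 libraries against the 4 unstimulated ones, and significance was assessed with the quasi-likelihood test of edgeR, adjusted by Benjamini-Hochberg over all 14469 genes. At 100 ng/ml 16 of the 42 members were higher and none lower, against 9.38% and 6.47% of all genes. At 1 ng/ml 13 were higher and none lower, against 5.54% and 1.99%. At 0.01 ng/ml no member was called in edgeR or in DESeq2, 1 had an unadjusted p under 0.05, and 0.0415% of all genes were called higher and 0% lower. The median over members was 0.09 at 100 ng/ml and 0.10 at 1 ng/ml, beside −0.01 and 0.00 over all genes. These contrasts, and those of TNFα and supernatant below, share the 4 unstimulated libraries. The labels name no separate cultures, so these tests are set against the scatter of libraries around fitted time trends, which may be technical. That scatter also holds any time course that departs from the fitted trend. The p-values cover that spread and no other.

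PSMA4 (ENSG00000041357, chr15:78540405-78552419) differed most between IFNγ and TNFα. It had 398, 381, 406 and 380 TPM at 2, 6, 12 and 24 h in unstimulated cells and 388, 527, 679 and 778 TPM with IFNγ 100 ng/ml. With TNFα 10 ng/ml it had 366, 404, 420 and 390 TPM. From 6 h the IFNγ libraries lay above every unstimulated one, while those of TNFα overlapped them. The fitted change was 0.64 ± 0.05 with IFNγ (adjusted p = 7.58e-11) and 0.06 ± 0.05 with TNFα (adjusted p = 0.455).

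In all, 6 of the 7 α ring genes rose with IFNγ 100 ng/ml. Beside PSMA4 these were PSMA5 (0.66 ± 0.06), PSMA6 (0.56 ± 0.07), PSMA3 (0.50 ± 0.05), PSMA1 (0.44 ± 0.04) and PSMA2 (0.41 ± 0.05), the largest adjusted p of the 6 being 1.99e-06. PSMA7 had 0.10 ± 0.03 (adjusted p = 0.0529). PSMA1, PSMA2, PSMA5 and PSMA7 are named here after their values were seen. Of the β ring 5 of 7 rose: PSMB3 by 0.36 ± 0.04, PSMB4 by 0.32 ± 0.05, PSMB2 by 0.31 ± 0.04, PSMB7 by 0.18 ± 0.05 and PSMB1 by 0.13 ± 0.03. None of the 6 ATPases was called, with values between 0.01 and 0.06. In the rest of the regulatory particle only ADRM1, a ubiquitin receptor (0.25 ± 0.08, adjusted p = 0.0402), and the lid subunit PSMD3 (0.16 ± 0.04, adjusted p = 0.00156) were called. Scaled by total library size, 10 members were called higher and 2 lower at 100 ng/ml. Shares of all genes called are given throughout for the fit described above, and not for other scalings or with libraries left out. Without the 2 h library of IFNγ 100 ng/ml 10 were called.

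**Figure D2:**
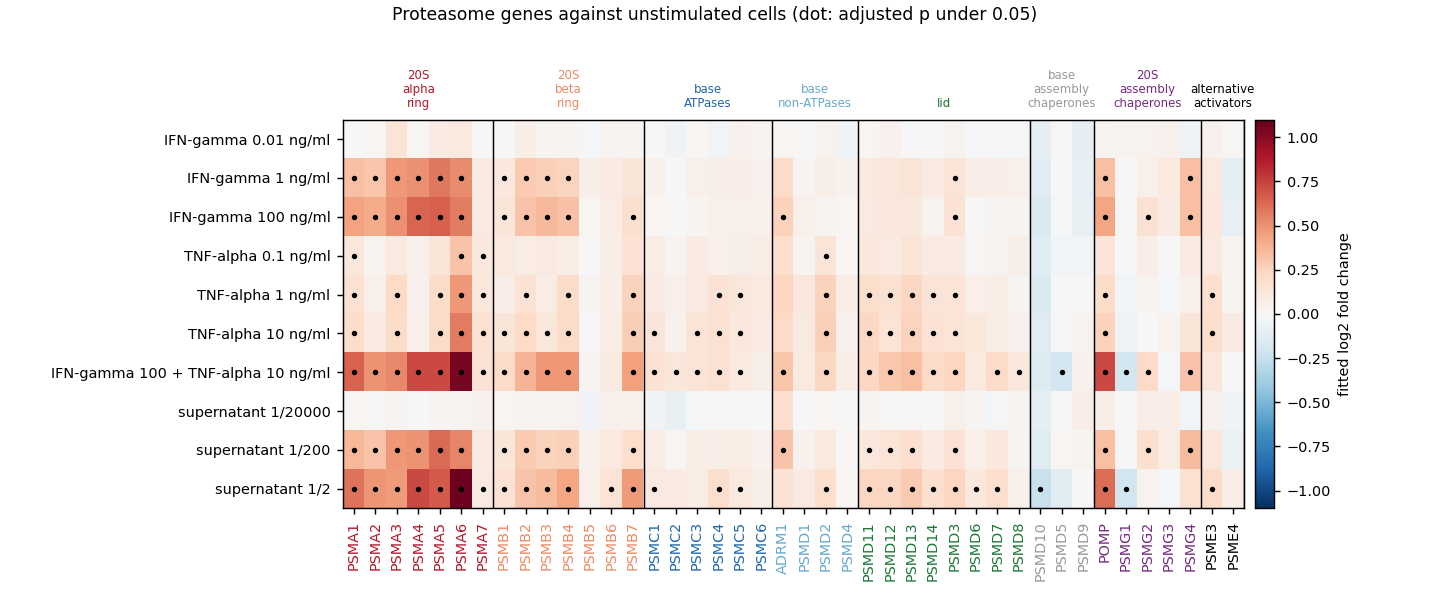
Fitted log2 fold change against unstimulated cells (colour) of the 42 genes (columns, grouped by role) in the 10 treatments (rows); a dot marks an adjusted p under 0.05. The α ring columns PSMA1 to PSMA6 and POMP are among the deepest red with IFNγ 1 or 100 ng/ml, the combination and supernatant 1/200 or 1/2, the dots among ATPases and lid lie mostly in the rows of TNFα, the combination and supernatant, and PSMB5 has no dot in any row.

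With TNFα, calls were spread over the core and the regulatory particle, and apart from PSMA6 none exceeded 0.27. At 10 ng/ml 22 members were higher and none lower, against 14.3% and 10.1% of all genes. At 1 ng/ml 18 were higher and none lower (11.5% and 7.42% of all genes), and at 0.1 ng/ml 4 were higher, PSMA1, PSMA6, PSMA7 and PSMD2, and none lower (4.02% and 1.6%). The median at 10 ng/ml was 0.14 over members and 0.00 over all genes. On total library size, 12 members were called higher at 10 ng/ml and 9 at 1 ng/ml, and none lower. The summed TPM of 10 epithelial and ovarian carcinoma markers, led by KRT8 and KRT18, was 3060 to 3354 in unstimulated cells. With TNFα 0.1, 1 and 10 ng/ml it was 2574.5 to 3194, 2264.5 to 3009.8 and 2274 to 3095. Its part in these calls was not tested. At 10 ng/ml 14 members were called without the 12 h unstimulated library, 11 without the 24 h TNFα library and 12 without the 2 h one. At 1 ng/ml 10 were called without the 24 h library of that dose and 9 without its 2 h library. At 0.1 ng/ml 1, 2 and 0 were called without the 2 h, 6 h and 12 h unstimulated libraries, and 1 without the 6 h or the 12 h library of that dose.

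PSMD2 (chr3:184298709-184309054), the base subunit that serves as a scaffold of the regulatory particle, was among the members called with TNFα and not with IFNγ, and is named after its values were seen. Unstimulated cells had 423, 396, 346 and 267 TPM at 2, 6, 12 and 24 h. With TNFα 10 ng/ml there were 394, 417, 430 and 400 TPM, and with IFNγ 100 ng/ml 398, 365, 355 and 255 TPM. The level thus fell with time in unstimulated and IFNγ-treated cells and stayed near its start with TNFα. The fitted change was 0.26 ± 0.04 with TNFα (adjusted p = 6.79e-06) and 0.03 ± 0.04 with IFNγ (adjusted p = 0.659).

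With TNFα 10 ng/ml, 5 of the 8 lid genes rose, among them PSMD13 (0.25 ± 0.05), PSMD11 (0.23 ± 0.04) and the deubiquitinase PSMD14 (0.16 ± 0.04). The ATPases PSMC4, PSMC3, PSMC1 and PSMC5 rose by between 0.11 and 0.17. In the β ring PSMB7 rose by 0.27 ± 0.05 and PSMB2 by 0.22 ± 0.04, with PSMB4, PSMB1 and PSMB3 also called. In the α ring 5 of 7 were called, PSMA6 with 0.57 ± 0.07 (adjusted p = 2.11e-07) and PSMA1, PSMA3, PSMA5 and PSMA7 with 0.17 to 0.21. The activator PSME3, which forms a ring on the core in the nucleus, rose by 0.19 ± 0.06.

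Compared directly, IFNγ 100 ng/ml and TNFα 10 ng/ml differed in 13 members, 8 higher with IFNγ and 5 higher with TNFα, against 11.1% and 13.4% of all genes. Higher with IFNγ were PSMA4 (0.59 ± 0.05, adjusted p = 3.89e-10), PSMA5 (0.45 ± 0.06), PSMA2 (0.32 ± 0.05), PSMA3 (0.30 ± 0.05), PSMA1 (0.24 ± 0.04), PSMB3 (0.23 ± 0.04) and the 20S chaperones POMP (0.18 ± 0.05) and PSMG2 (0.17 ± 0.05). Lower with IFNγ were PSMD2 (−0.23 ± 0.04, adjusted p = 3.36e-05), the activator PSME4 (−0.18 ± 0.04), PSMD11 and PSMD14 (−0.12 ± 0.04 each) and PSMC1 (−0.12 ± 0.04). The 8 genes of the first group belong to the core or its assembly. The 5 of the second, about the share of all genes, belong to the regulatory particle or an activator. With scaling by total library size, 8 were higher and 9 lower. Without the 2 h TNFα library 7 were higher and 1 lower.

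**Figure D3:**
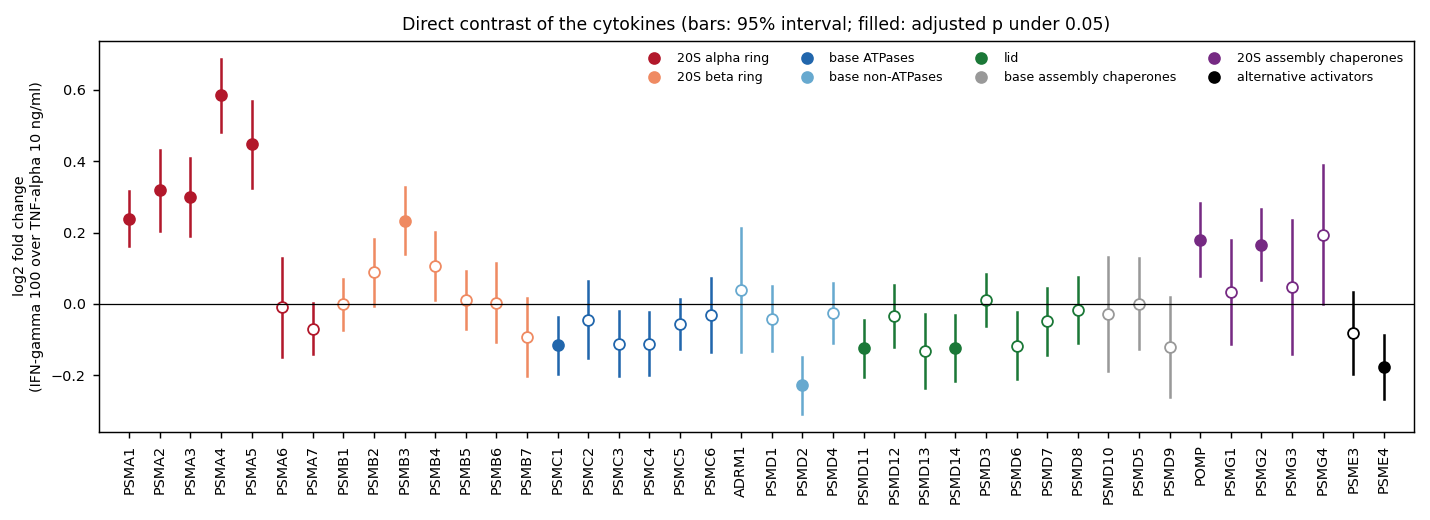
Fitted log2 fold change of IFNγ 100 ng/ml over TNFα 10 ng/ml (vertical axis) for the 42 genes (horizontal axis), coloured by role; bars are 95% intervals and filled points had an adjusted p under 0.05. PSMA1 to PSMA5 lie above 0, PSMA6 lies at −0.01, and PSMD2 and PSME4 lie lowest at −0.23 and −0.18.

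PSMA6 (ENSG00000100902, chr14:35278633-35317493) rose with either cytokine and most with both. It had 617, 645, 787 and 885 TPM at 2, 6, 12 and 24 h with IFNγ 100 ng/ml, and 494, 643, 861 and 777 TPM with TNFα 10 ng/ml. The combination gave 606, 838, 1293 and 1092 TPM, and supernatant 1/2 gave 543, 773, 1127 and 1256 TPM. From 6 h all 12 of these libraries lay above the highest unstimulated one (536 TPM). The fitted change was 1.04 ± 0.07 with the combination (adjusted p = 5.66e-13) and 1.08 ± 0.07 with supernatant 1/2 (adjusted p = 3.24e-13). The combination exceeded IFNγ alone by 0.48 ± 0.07 (adjusted p = 2.27e-06) and TNFα alone by 0.47 ± 0.07 (adjusted p = 3.87e-06). PSMA6 was also the member with the largest change at TNFα 0.1 ng/ml (0.31 ± 0.07, adjusted p = 0.00392). The gene lies 84017 bases from NFKBIA, which encodes the inhibitor IκBα, and a link between these genes was not tested. Exons of PSMA6 overlap those of AL121594.1 on the same strand, between which reads may have been divided.

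With IFNγ and TNFα together most members were called higher than in unstimulated cells. There were 29 members higher and 2 lower, against 23.5% and 22.4% of all genes, with a median of 0.21 over members and −0.02 over all genes. All 7 α ring genes were called higher (0.16 to 1.04), as were 5 of 7 β ring genes, 5 of 6 ATPases, 7 of 8 lid genes and 2 of 4 other base genes. PSMB4 rose by 0.48 ± 0.05, PSMB2 by 0.37 ± 0.04, PSMG4 by 0.32 ± 0.09, ADRM1 by 0.30 ± 0.08 and PSMD3 by 0.24 ± 0.04. The ATPases called rose by only 0.10 to 0.17. The summed TPM of the 6 ATPases was 1129, 1172, 1217 and 1066 at 2, 6, 12 and 24 h with the combination. Unstimulated cells had 1271, 1246, 1183 and 1034 TPM, so that on this scale the combination was lower at 2 h and 6 h. PSMD5, a chaperone of base assembly, fell by 0.21 ± 0.06 (adjusted p = 0.00618), and PSMG1, which pairs with PSMG2 to start the α ring, fell by 0.20 ± 0.07 (adjusted p = 0.0208). Scaled by total library size, the median of all genes moved from −0.02 to −0.20, and 13 members were called higher and 6 lower, so that the direction of the smallest changes depends on the scaling. The summed TPM of the same markers was 1903 to 3057 with the combination, 1771 to 3170 with supernatant 1/2 and 2845 to 3491 with IFNγ 100 ng/ml, and its part in these results was not tested.

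Against IFNγ alone, the combination was higher in 15 members and lower in 1 (16.1% and 13.4% of all genes). Next to PSMA6 these were led by POMP (0.29 ± 0.05), PSMB7 (0.27 ± 0.05) and PSMD13 (0.21 ± 0.05), with 9 of the 15 in the ATPases, base or lid. Against TNFα alone it was higher in 14 and lower in 1 (12.5% and 11.2%), led by PSMA4 (0.67 ± 0.05), PSMA5 (0.51 ± 0.06) and POMP (0.47 ± 0.05), with 2 of the 14 in the regulatory particle, PSMD12 and PSMD7. PSMD5 was the member called lower in both. Scaled by total library size the splits were 4 higher and 2 lower against IFNγ, and 9 higher and 12 lower against TNFα. The interaction, a departure from additive log2 effects, was called for no member in edgeR or DESeq2, and 4 had an unadjusted p under 0.05. Among all genes 0.352% had a positive and 0.173% a negative interaction called.

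With the co-culture supernatant the α ring again held the largest changes. At 1/2, 26 members were higher and 2 lower than in unstimulated cells, against 22.6% and 20.8% of all genes, with a median of 0.16 over members. At 1/200, 19 were higher and none lower (7.12% and 3.73%), and at 1/20000 none was called in edgeR or DESeq2, with 1 unadjusted p under 0.05 (0.00691% and 0% of all genes). After PSMA6, supernatant 1/2 raised PSMA4 most (0.73 ± 0.05), followed by POMP (0.61 ± 0.05), PSMA1 (0.60 ± 0.04), PSMA2 (0.49 ± 0.05) and PSMA3 (0.47 ± 0.05) among genes with the same sign at all 4 durations. PSMG1 fell by 0.21 ± 0.07 (adjusted p = 0.0186). PSMD10 (gankyrin), a chaperone of base assembly, had between 16.5 TPM (24 h) and 23.2 TPM (2 h) against 26.1, 24.6, 28.1 and 29.6 TPM unstimulated, with no overlap. It fell by 0.24 ± 0.08 (adjusted p = 0.0108). At the lowest doses, where PSMD10 was not called, its value was also negative: −0.10 with IFNγ 0.01 ng/ml, −0.13 with TNFα 0.1 ng/ml and −0.11 with supernatant 1/20000. Compared directly, supernatant 1/2 and the combination differed in 1 member, PSMG2, lower with supernatant (−0.17 ± 0.05, adjusted p = 0.0278), and in none higher, against 3.95% and 4.51% of all genes. That call was lost on leaving out any of 5 single libraries. Scaled by total library size, 13 members were higher and 4 lower at 1/2, where the median of all genes moved from −0.02 to −0.16. At 1/200, 11 members were called without the 2 h unstimulated library, 12 without the 12 h library of that dilution and 11 without its 2 h library.

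The changes grew with time. The slope of the treatment effect per unit of log2 duration was positive in 10 members with IFNγ 100 ng/ml and negative in none (2.52% and 0.912% of all genes), in 8 and none with TNFα 10 ng/ml (1.47% and 1.22%), in 23 and none with the combination (11.1% and 10.5%), and in 15 and none with supernatant 1/2 (8.34% and 7.91%). The steepest with the combination were PSMA6 (0.41 ± 0.05), PSMA5 (0.38 ± 0.04) and POMP (0.37 ± 0.04), and with TNFα PSMA6 (0.19 ± 0.05) and PSMD2 (0.17 ± 0.03). At 2 h the log2 ratio of PSMA4 to unstimulated cells was 0.02 with IFNγ and −0.03 with the combination, where it reached 1.12 at 24 h. These counts rest in part on the first unstimulated library: without it 1, 0, 12 and 6 members were called for IFNγ, TNFα, the combination and supernatant. For IFNγ 5 were called without its 24 h library. For TNFα 4 and 5 were called without the 12 h and 24 h unstimulated libraries, and 1 and 0 without its own 2 h and 24 h libraries. Fits to the 2 h and 6 h libraries alone called 0 members with IFNγ 100 ng/ml, 0 with TNFα 10 ng/ml, 1 with the combination and 4 with supernatant 1/2.

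**Figure D4:**
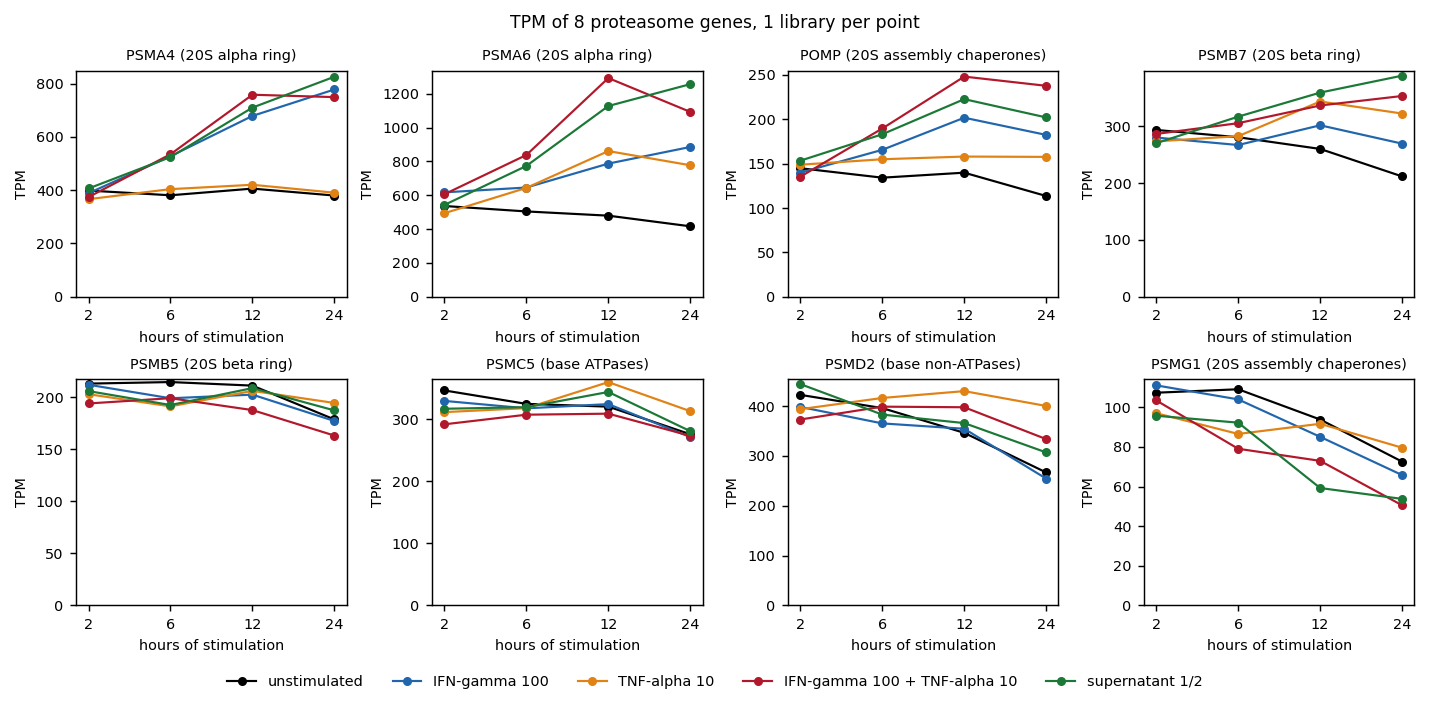
TPM (vertical axis, from 0) of 8 proteasome genes against hours of stimulation (horizontal axis, equally spaced), 1 library per point. PSMA4 climbs in the 3 treatments with IFNγ or supernatant and not with TNFα, and PSMA6 climbs in all 4 up to 12 h. PSMD2 stays highest with TNFα from 6 h, and PSMB5 stays between 163 and 215 TPM throughout.

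Of the 3 catalytic subunits that immunoproteasomes replace, PSMB5 showed no called change. PSMB5 (chr14:23016543-23035230), the chymotrypsin-like subunit, had 213, 215, 211 and 179 TPM in unstimulated cells, 212, 199, 203 and 177 TPM with IFNγ 100 ng/ml, and 194, 199, 188 and 163 TPM with the combination. The groups overlapped. Its fitted change was 0.02 with IFNγ (95% interval −0.06 to 0.10), 0.01 with TNFα 10 ng/ml (−0.07 to 0.09), 0.03 with the combination (−0.05 to 0.11) and 0.06 with supernatant 1/2 (−0.03 to 0.14). Scaled by total library size the value with the combination was −0.15 (adjusted p = 0.00183). TPM, which is scaled to a fixed total, likewise put the combination below unstimulated cells at each duration. PSMB6, the caspase-like subunit, was called only with supernatant 1/2 (0.15 ± 0.05, adjusted p = 0.02). PSMB7, the trypsin-like subunit, had 293, 281, 260 and 212 TPM unstimulated and 286, 305, 336 and 353 TPM with the combination. It rose with TNFα (0.27 ± 0.05), IFNγ 100 ng/ml (0.18 ± 0.05), the combination (0.45 ± 0.05) and supernatant 1/2 (0.47 ± 0.05).

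The makeup of the catalytic transcripts changed mainly in the level of the inducible subunits. PSMB8, PSMB9 and PSMB10 together made up 10.1%, 11.9%, 13.3% and 17.1% of the TPM of all 6 catalytic subunits at 2, 6, 12 and 24 h in unstimulated cells. With IFNγ 100 ng/ml the shares were 15.3%, 39.5%, 53.1% and 65.6%, and with the combination 18.6%, 39.8%, 54.7% and 62.3%. With TNFα 10 ng/ml they were 13.9%, 20.9%, 21.3% and 20.9%. The summed TPM of PSMB5, PSMB6 and PSMB7 meanwhile was 670, 635, 680 and 618 with IFNγ and 675, 666, 638 and 569 without stimulus. PSMB9 changed by 3.38 ± 0.14 with IFNγ 100 ng/ml and by 1.31 ± 0.16 with TNFα 10 ng/ml, and its interaction was negative (−1.07 ± 0.20, adjusted p = 0.0083). Transcript shares say nothing of how much of each subunit was built into particles.

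**Figure D5:**
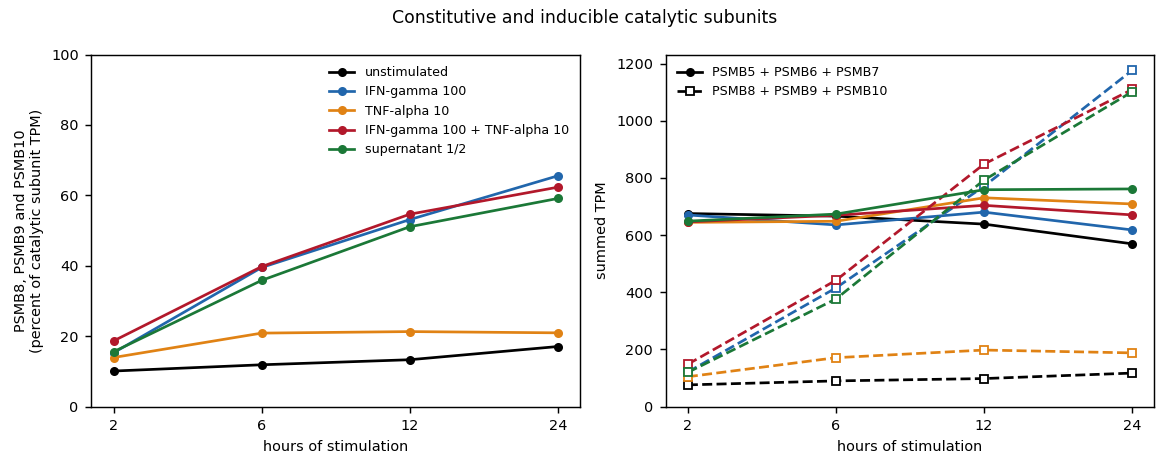
Left, percent of the TPM of the 6 catalytic subunits that came from PSMB8, PSMB9 and PSMB10; right, summed TPM of the constitutive (filled circles, solid) and inducible (open squares, dashed) subunits; both against hours of stimulation (equally spaced), 1 library per point. The share reaches 59.1% to 65.6% at 24 h in the 3 treatments with IFNγ or supernatant, while the constitutive sum stays between 569 and 761 TPM.

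Among the chaperones of 20S assembly, POMP was called in each of the 4 main contrasts. POMP (ENSG00000132963, chr13:28659104-28678925) guides the β subunits onto the α ring and is degraded by the finished core. It had 145, 134, 140 and 114 TPM in unstimulated cells, 140, 166, 202 and 182 TPM with IFNγ 100 ng/ml, and 135, 190, 248 and 238 TPM with the combination. From 6 h both treatments lay above all unstimulated libraries. The fitted change was 0.43 ± 0.05 with IFNγ (adjusted p = 1.22e-07), 0.25 ± 0.05 with TNFα 10 ng/ml (adjusted p = 0.000312) and 0.73 ± 0.05 with the combination (adjusted p = 1.46e-12).

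The PSMG genes encode chaperones that pair to build the α ring. PSMG1 had 107, 109, 93.8 and 72.6 TPM unstimulated and 103, 79.1, 73.0 and 50.6 TPM with the combination. Its partner PSMG2 was higher with IFNγ 100 ng/ml (0.17 ± 0.05) and with the combination (0.21 ± 0.05), and had 0.04 ± 0.05 with supernatant 1/2. PSMG3 was not called in any of the 4 main contrasts (−0.02 to 0.09). Its partner PSMG4 had nearly the value of POMP with IFNγ 1 ng/ml (0.33 for both) and with supernatant 1/200 (0.35 and 0.33). It was higher with IFNγ 100 ng/ml (0.33 ± 0.09, adjusted p = 0.0137) and the combination, and had 0.14 ± 0.09 with TNFα. The partners thus differed: PSMG1 and PSMG2 were called in opposite directions with the combination. Of the activators, PSME4 had −0.09 ± 0.04 with IFNγ (adjusted p = 0.163) and 0.00 ± 0.04 with the combination, where total library scaling gave −0.18 (adjusted p = 0.00119). The ubiquitin receptor PSMD4 was called in none of the 4 contrasts (0.02 to 0.07). With total library scaling it was −0.11 with the combination and −0.12 with supernatant 1/2.

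Other genes of the system were counted from fixed lists, which were drawn up with earlier results of these data known. The inducible subunits and the PA28 activator (PSME1 and PSME2) were 5 of 5 higher with the upper 2 doses of each cytokine (1 and 100 ng/ml IFNγ, 1 and 10 ng/ml TNFα), the combination and supernatant 1/2 or 1/200. Of 12 genes of the NRF1 route, 1 rose with IFNγ 100 ng/ml, 6 with TNFα 10 ng/ml, 8 with the combination and 9 with supernatant 1/2, beside 9.38%, 14.3%, 23.5% and 22.6% of all genes, and none fell in these contrasts. The single gene with IFNγ, MAFF, is about the share of all genes. NFE2L1 had 167, 143, 138 and 166 TPM in unstimulated cells, 145, 162, 183 and 258 TPM with the combination and 127, 194, 219 and 518 TPM with supernatant 1/2. It rose by 0.39 ± 0.07 with the combination and by 0.66 ± 0.07 with supernatant 1/2, and the latter exceeded the combination (0.28 ± 0.07, adjusted p = 0.00959). Whether NFE2L1 bears on the members was not tested. MAFF, a small partner of such factors, rose by 2.09 ± 0.12 with the combination.

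Of 6 genes that supply or activate ubiquitin, 3 rose with IFNγ 100 ng/ml and 4 with TNFα 10 ng/ml. All 6 rose with the combination and with supernatant 1/2. The shares of all genes called higher in these 4 contrasts were 9.38%, 14.3%, 23.5% and 22.6%. UBA6, an activating enzyme that serves both ubiquitin and the ubiquitin-like protein FAT10, rose by 0.90 ± 0.06 with the combination. Of 19 factors that bind or deliver to the proteasome, 7 rose and 6 fell with the combination, beside 23.5% and 22.4% of all genes. With IFNγ 100 ng/ml 1 rose and 1 fell, under the 9.38% and 6.47% of all genes: PSMF1 (PI31), which binds the core (0.29 ± 0.04), and ZFAND5, an activator of the particle (−0.42 ± 0.06).

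A pair of settings bear on all counts. With 1 library per treatment and duration the error comes from the scatter around fitted time trends, and a fit to the compared libraries alone, which leaves few degrees of freedom, called between 0 and 1 member in each contrast. Exons of 4 members, PSMA1, PSMA2, PSMA6 and PSMD9, overlap another gene on the same strand and those of 14 overlap one on the opposite strand, and the strand counted is not given in the sources used here.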

How the data were processed

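Messenger RNA from OVCAR5 cells was made into stranded libraries, per the labels' protocols. Each deposited table gave, per gene, expected counts and TPM estimated by the authors; the submitters' processing notes name Salmon, STAR, UMI-tools and GRCh38 among their tools, with versions and roles not given in the sources used here. Expected counts were rounded to whole numbers, and TPM was used only to describe levels. Coordinates are those of GENCODE v29 on GRCh38.

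Counts were tested with edgeR 4.0.16 (under R 4.3.3, on limma 3.58.1): filterByExpr (minimum count 10, minimum total 15) kept 14469 genes, and TMM factors ran from 0.896 to 1.081. All 44 libraries were fitted with factors for duration and treatment and, per treatment, a slope on centred log2 duration (24 coefficients, 20 residual degrees of freedom), by the robust quasi-likelihood F test with Benjamini-Hochberg adjustment at 0.05. Each SE was derived from the F statistic, and 95% intervals use 20 degrees of freedom. Log2 ratios of single durations used log2 CPM with a prior count of 2. Members, lists and tests were chosen with earlier results of these data known. Genes named are, in each of the 4 contrasts of IFNγ 100 ng/ml, TNFα 10 ng/ml, the combination and supernatant 1/2 with unstimulated cells, up to 6 called in each direction with 1 sign at all 4 durations, plus PSMB5, PSMB6, PSMB7, POMP, PSMG1 to PSMG4, PSME3, PSME4, ADRM1, PSMD4 and PSMD14; others were named after their values were seen. The test of supernatant 1/2 against unstimulated cells was checked on simulated counts, with 50 genes changed at each size. The changed genes were drawn from those with high counts, with a single spread for all genes and no effect of duration. At log2 changes of 0.2 and −0.2 it recovered 14% and 8% of them, and at 0.4 and −0.4 78% each. These rates may not hold for members with low counts or for changes that grow with time. There were 7 false calls, with 14053 genes tested. Alternatives were other scalings, DESeq2 1.42.0, no filter, no slopes, subsets of libraries and leaving out single libraries. Expected counts carry counting error and no measured error between cultures.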

Additional observations from a re-analysis of the deposited data

Results flagged for a closer look

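Among 224 sets of 4 values (1 treatment at its 4 durations), 15 had 1 library standing apart, with a gap to the nearest value, relative to the range, above Dixon's 95% critical value; chance gives about 1 in 20, and durations are not replicates. At 24 h the summed level was low with IFNγ 0.01 ng/ml for the 20S chaperones (356.61 TPM), activators (164 TPM), ATPases (1032 TPM), base non-ATPases (765 TPM) and lid (917 TPM). With supernatant 1/20000 at 24 h it was low for the 20S chaperones (356.66 TPM), base non-ATPases (777 TPM) and lid (889.9 TPM). The activators were low with IFNγ 100 ng/ml at 24 h (163 TPM), as was PSME3 (138 TPM). At 12 h the β ring with IFNγ 1 ng/ml (1794 TPM), the ATPases with TNFα 10 ng/ml (1330.1 TPM) and PSMD14 with the combination (148 TPM) stood apart. In unstimulated cells PSMB3 at 2 h (366 TPM) and PSMB5 at 24 h (179 TPM) did.

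The effect differed between durations, by the test of the slope, for 10 members with IFNγ 100 ng/ml, 8 with TNFα 10 ng/ml, 23 with the combination and 15 with supernatant 1/2. Outside the members, the effects of IFNγ and TNFα on PSMB9 and PSME2 were less than additive on the log2 scale, with interactions of −1.07 and −0.57.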

How the results depend on the processing

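Counts are members called, in edgeR except where DESeq2 is named. With only the 2 h and 6 h libraries, 0 were called for IFNγ 1 and 100 ng/ml, TNFα 0.1, 1 and 10 ng/ml, supernatant 1/200, the combination against IFNγ or TNFα, IFNγ against TNFα and supernatant 1/2 against the combination, with 1 for the combination and 4 for supernatant 1/2. With only the compared libraries, 1 was called for TNFα 1 and 10 ng/ml, supernatant 1/2, the combination against IFNγ and IFNγ against TNFα, and 0 for the others. Without slope terms the counts were 4 (IFNγ 1 ng/ml), 0, 3 and 11 (TNFα 0.1, 1 and 10 ng/ml), 5 (supernatant 1/200), 9 (combination against IFNγ), 7 (IFNγ against TNFα) and 0 (supernatant against combination). By total library size they were 1, 9 and 12 (TNFα), 19 (combination), 17 (supernatant 1/2), 6 (combination against IFNγ) and 0 (supernatant against combination). That scaling moved the median of all genes from −0.01 to −0.12 for the combination against IFNγ and from −0.02 to −0.14 against TNFα. TNFα 0.1 ng/ml had 1 without a filter and 0 with only 12 h and 24 h, and supernatant against the combination 0 in both.

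Leaving out single libraries gave 10 to 12 (IFNγ 1 ng/ml), 10 to 16 (IFNγ 100 ng/ml), 0 to 6, 9 to 19 and 11 to 22 (TNFα 0.1, 1 and 10 ng/ml), 24 to 33 (combination), 22 to 27 (supernatant 1/2), 11 to 17 (1/200), 11 to 17 (combination against IFNγ), 11 to 16 (against TNFα), 8 to 14 (IFNγ against TNFα) and 0 to 2 (supernatant against combination). For slopes the ranges were 1 to 10 (IFNγ), 0 to 8 (TNFα), 12 to 23 (combination) and 6 to 15 (supernatant).

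Values that changed sign and were called on either side were PSMB5 (−0.15), PSMD4 (−0.11) and PSME4 (−0.18) with the combination and PSMD4 (−0.12) with supernatant 1/2, all by total library size, and PSMD14 with the combination (−0.025) at 2 h and 6 h only. The cause was not tested. DESeq2 left 99 of 100 values of named members with the same direction and call. No paired analysis was possible because the labels give no replicate numbers; libraries of the same duration were matched through the factor for duration.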
